A study of Mus musculus with 24 samples.

Results

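Of the 13447 H3K4me3 peaks found on the 19 autosomes and X in C127 cells, 322 (2.39%) lay at the start of a long non-coding RNA (lncRNA) gene and away from every protein-coding start of the GENCODE basic transcript set. A peak was counted here when it came within 250 bp of a lncRNA transcription start site (TSS) and lay over 1000 bp from every protein-coding TSS, so the choice used positions alone. Another 8491 peaks reached protein-coding TSSs only, 1213 reached both kinds, 9 reached a lncRNA TSS with a coding TSS between 251 and 1000 bp away, and 3412 reached neither. The 322 peaks touched the starts of 338 lncRNA genes, and at 264 of the peaks every gene had only a provisional name of the Gm, Rik or clone type.

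C127 is a mouse line labelled as mammary epithelial, and the H3K4me3 ChIP-seq was done in 3 replicates of unmodified cells crosslinked with 1% formaldehyde, with 1 input sample. The remaining groups of the 24-sample series (ChIP of endogenous CFP1, KDM2B and RNA PolII, GFP ChIP in cells with GFP alone or GFP-CFP1 forms, and inputs) were not used here. The data analysed were a single list of the peaks found in every replicate, with positions and no heights, so no value below has a spread between replicates and no test over samples could be made. Shares are given with 95% Wilson intervals, in which the only error counted is that of sampling loci. The read depth behind the peaks is unknown. None of 8 epithelial genes (Krt5, Krt7, Krt8, Krt14, Krt18, Krt19, Epcam and Cdh1) had a peak within 250 bp of a TSS, beside 49.4% of all protein-coding genes. These 8 were picked with earlier results of these data known, so they are not an independent check of the label. Vim, which encodes the mesenchymal intermediate filament vimentin, had a peak of 7153 bp, and the leukocyte, endothelial and hepatocyte genes Ptprc, Pecam1 and Alb had none.

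H3K4me3 is a histone modification placed around the start sites of active and poised genes, and in mammals it is found mainly at CpG islands, stretches where CpG dinucleotides are kept free of methylation. lncRNA genes are transcribed by RNA polymerase II like coding genes, and some of their transcripts act in the nucleus while others serve chiefly as precursors from which microRNAs (miRNAs) or small nucleolar RNAs (snoRNAs) are cut.

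The starts under these peaks ranged from dense CpG islands to sequence with almost no CpG. The stretches that follow run from 100 bases before to 50 bases after the TSS, read in the direction of transcription from the reference genome (mm10, GRCm38.p6), with every CpG in capitals. They are the starts with the widest peaks among the peaks named here that overlapped a CpG island and are shown to let the CpG content be compared.
Lncppara, chr15:85653516-85653665, plus strand: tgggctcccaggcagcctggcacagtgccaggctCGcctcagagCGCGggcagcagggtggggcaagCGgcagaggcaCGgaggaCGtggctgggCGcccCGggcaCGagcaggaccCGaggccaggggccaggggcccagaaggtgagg
Neat1, chr19:5845210-5845359, minus strand: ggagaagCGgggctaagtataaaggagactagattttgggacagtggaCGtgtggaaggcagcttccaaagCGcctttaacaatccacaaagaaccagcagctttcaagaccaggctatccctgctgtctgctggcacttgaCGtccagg
Malat1, chr19:5802622-5802771, minus strand: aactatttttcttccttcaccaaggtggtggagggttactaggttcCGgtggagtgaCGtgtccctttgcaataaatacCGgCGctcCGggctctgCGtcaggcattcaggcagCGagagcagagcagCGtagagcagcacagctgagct
AL805899.1, chr4:88938472-88938621, minus strand: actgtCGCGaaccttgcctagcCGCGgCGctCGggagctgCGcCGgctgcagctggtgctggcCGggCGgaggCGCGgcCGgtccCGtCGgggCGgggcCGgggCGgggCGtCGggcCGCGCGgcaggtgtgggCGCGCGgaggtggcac
The stretch at AL805899.1 held 26 CpGs in 150 bases, and those at Lncppara, Malat1 and Neat1 held 10, 8 and 4.

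The corresponding starts with the widest named peaks that overlapped no island were the following.
Lncpint, chr6:31088422-31088571, minus strand: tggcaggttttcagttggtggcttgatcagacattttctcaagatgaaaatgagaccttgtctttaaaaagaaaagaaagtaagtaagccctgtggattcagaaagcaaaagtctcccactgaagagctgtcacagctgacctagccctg
Gm27240, chr9:32711122-32711271, minus strand: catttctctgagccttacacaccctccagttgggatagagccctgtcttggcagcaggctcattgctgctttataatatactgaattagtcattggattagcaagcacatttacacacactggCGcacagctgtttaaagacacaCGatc
Gm15398, chr10:73327126-73327275, minus strand: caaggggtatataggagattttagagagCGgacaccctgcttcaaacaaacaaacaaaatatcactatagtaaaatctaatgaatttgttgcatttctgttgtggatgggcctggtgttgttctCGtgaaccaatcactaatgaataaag
Gm28499, chr1:89568665-89568814, plus strand: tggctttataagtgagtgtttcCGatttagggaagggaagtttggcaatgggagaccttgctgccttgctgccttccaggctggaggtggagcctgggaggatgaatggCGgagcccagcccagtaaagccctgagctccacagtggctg
The Lncpint stretch contained no CpG, although the peak around it was 10453 bp wide. Gm27240, Gm15398 and Gm28499 held 2 CpGs each.

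The peaks at lncRNA starts were intermediate in width between those at coding starts and those at no start. Their median width was 2045 bp (quartiles 1268 and 3211 bp, range 342 to 37217 bp). Peaks at coding TSSs only had a median of 3054 bp, peaks at both kinds of TSS 3631 bp, and peaks at neither 1136 bp. Among lncRNA types in the GENCODE annotation, 182 peaks lay at intergenic lincRNA genes, 62 at processed transcripts and 58 at antisense genes, with median widths of 1764, 2204 and 2338 bp. A further 8 reached a lincRNA and a processed transcript gene together.

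**Figure D1:**
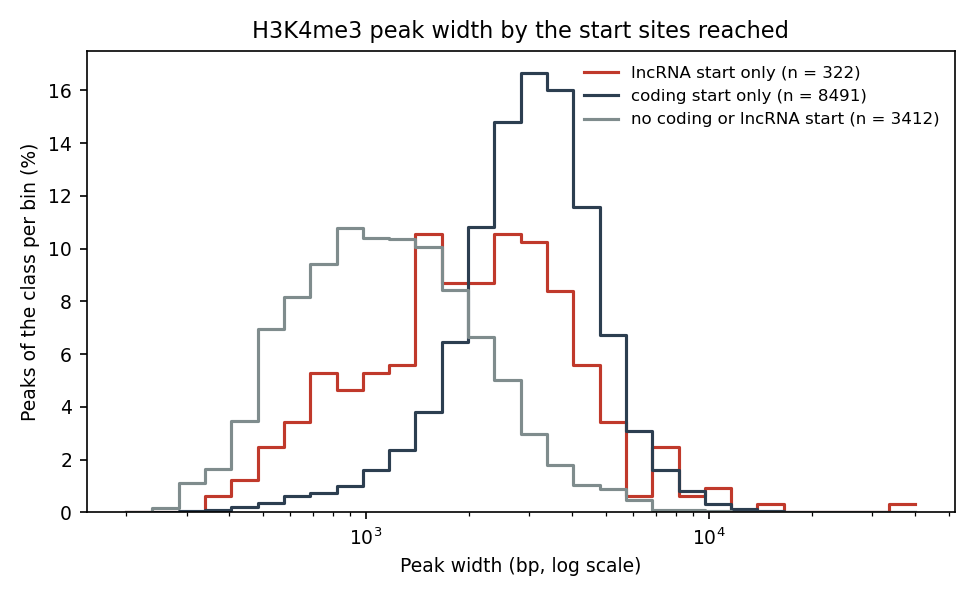
Share of the peaks of each class (%, vertical axis) in bins of peak width (bp, log scale, horizontal axis) for peaks at lncRNA TSSs only, at coding TSSs only and at neither. The distribution at lncRNA TSSs lies between the others, around a median of 2045 bp against 3054 bp at coding TSSs and 1136 bp at no TSS.

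The widest peaks lay at several well-known lncRNA genes. The peak of 37217 bp at Lncppara (chr15:85651951-85689167), a host gene of let-7 miRNAs upstream of the nuclear receptor gene Ppara, was the widest of all 13447 peaks in the list, and 35551 bp of it lay downstream of the TSS. The next widest of the 322 were 13898 bp at Neat1 (chr19:5838368-5852265), whose RNA is the scaffold of nuclear paraspeckles, and 11565 bp at Malat1 (chr19:5795153-5806717), whose abundant RNA resides in nuclear speckles. The antisense gene Frmd8os also started within the Neat1 peak.

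Lncpint, a p53-regulated lncRNA, had separate peaks at 2 starts. The peak without an island was 10453 bp wide (chr6:31080162-31090614) and the other, which overlapped an island and also reached 2210408F21Rik, was 7414 bp wide (chr6:31215189-31222602). The widest 12 also held AL805899.1 with 10358 bp (chr4:88931975-88942332), 3110039I08Rik with Gm28119 at 9358 bp (chr9:41578925-41588282), A330074K22Rik with 8863 bp, Gm38399 with 7712 bp and Gm14488 with 7490 bp. RefSeq coding starts of Gse1 and Nav1 lay inside the peaks of A330074K22Rik and Gm38399, respectively. Pvt1, the gene next to Myc, had a peak of 8007 bp (chr15:62036937-62044943), and Carmn, a lncRNA best known from cardiac and smooth muscle, had 7672 bp. Island overlap was present at 11 of these 12 peaks.

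The narrowest peaks were 342 bp at B230206L02Rik, 359 bp at Gm40614, 413 bp at Gm32856, 447 bp at AC119181.3 and 473 bp at Gm20939. Of these 5, only the peak at Gm32856 overlapped an island. The start itself lay inside the peak at 297 of the 322 loci (92.2%), and at the other 25 an edge of the peak lay within 250 bp of it.

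A CpG island was overlapped by 243 of the 322 peaks (75.5%, 95% CI 70.5 to 79.8). The share was 96.8% for peaks at coding TSSs only and 42.1% for peaks at no TSS. With a stricter definition (500 bp, GC fraction 0.55, observed over expected CpG 0.65), 153 peaks (47.5%) overlapped an island. The strict share was 89.7% for peaks at coding TSSs only and 15.2% for peaks at no TSS. The main definition is a loose one, with 177680 islands against 21346 strict ones. Overlap was counted anywhere in a peak, so wider peaks had more room for it. By the main definition, an island lay within 250 bp of the lncRNA TSS nearest the peak centre at 213 of the 322 peaks (66.1%). Lncppara was not among these. Peaks at lncRNA starts with an island had a median width of 2365 bp and the 79 without one 1616 bp. The corresponding values for coding starts were 3083 and 1923 bp, so the lncRNA peaks had the smaller median in either class.

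The CpG count and repeat share at these starts lay between those of coding starts with a peak and those of lncRNA starts without one. In the 501 bp centred on the TSS, the median CpG count was 17, against 41 at peaks with coding TSSs only and 6 at the lncRNA genes that had no peak. The median GC content was 54.9% and the CpG observed over expected ratio 0.50, against 64.3% and 0.81 at coding starts. Repeats covered a median of 8.78% of the window, 4.59% at coding starts and 13.2% at lncRNA genes without a peak. Only 3 of the 322 starts had repeats over more than 50% of the window. Across the 243 peaks with an island, width and island length had a Spearman rho of 0.56, and across the 8216 such coding peaks 0.59. These are descriptions over loci of a single list.

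Peaks reached further downstream of the lncRNA TSS than upstream. The median extent was 1224 bp downstream and 740.5 bp upstream, measured from the TSS nearest the peak centre, and the median difference within a peak was 542 bp. The downstream side was the longer at 224 of the 322 peaks (69.6%, 95% CI 64.3 to 74.3). Peaks at coding TSSs only had medians of 2048 and 922 bp, a median difference of 1011 bp and a longer downstream side at 87.2%. Leaving out the 17 peaks with lncRNA starts on both strands gave 70.2% of 305 peaks. Lncppara was at the far end of this pattern, whereas at Neat1 the sides were nearly equal, with 7006 bp upstream and 6891 bp downstream, and at Bach2it1, an intronic RNA of the Bach2 locus, the peak of 2632 bp ended 148 bp before the TSS.

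**Figure D2:**
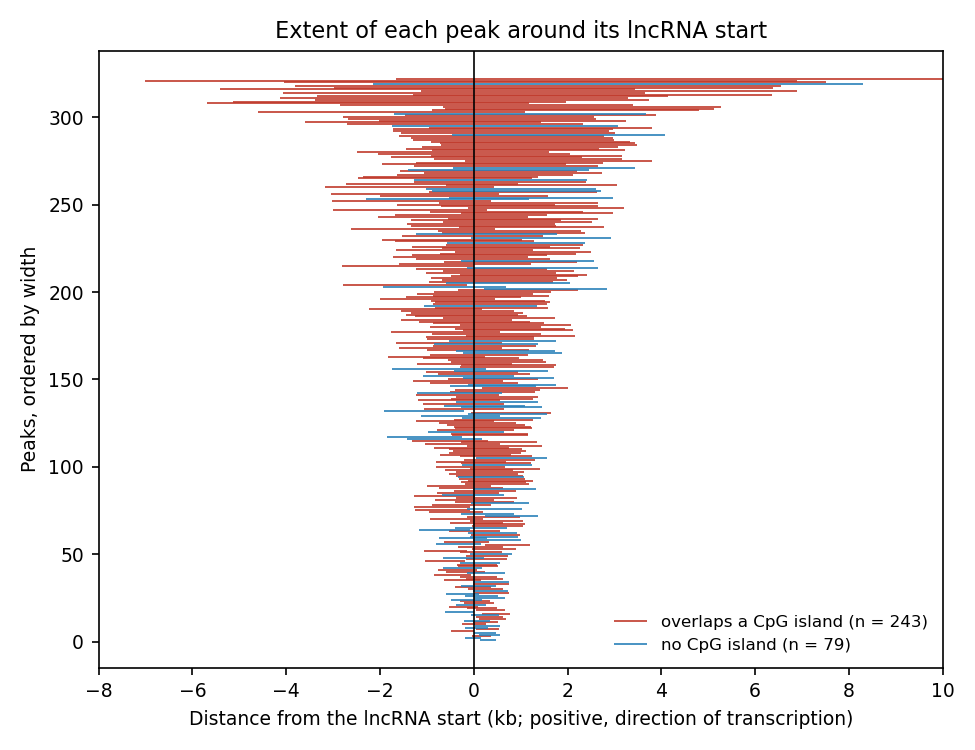
Extent of the 322 peaks around the lncRNA TSS nearest the peak centre (kb, horizontal axis, positive in the direction of transcription), 1 line per peak in order of width (vertical axis) and coloured by overlap with a CpG island (243 with, 79 without). Lines are longer to the right of the TSS at 224 peaks. The axis ends at 8 kb upstream and 10 kb downstream, which cuts the line of Lncppara alone.

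Most lncRNA genes had no peak. Of 9600 lncRNA genes, 7920 had every start over 1000 bp from coding TSSs. Of these, 336 (4.24%, 95% CI 3.82 to 4.71) had a peak counted here. Another 160 had a peak that also came within 1000 bp of a coding TSS, and 7424 had none. By comparison, 49.4% of 21755 protein-coding genes had a peak within 250 bp of a TSS.

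The share with a peak was split by lncRNA type and by the sequence at the start. It was 14.1% for processed transcripts (71 of 505), 3.96% for lincRNA genes (196 of 4947), 2.94% for antisense genes (62 of 2112) and 1.92% for sense intronic genes (6 of 312). The only peak at a gene annotated as having a bidirectional promoter was that of Gm26839, 1 of 14 such genes, and no peak was found at 28 sense overlapping and 2 macro lncRNA genes. The intervals of processed transcripts (11.3 to 17.4%) and lincRNA genes (3.45 to 4.54%) did not overlap. Peaks at processed transcripts included those of small RNA hosts such as Snhg5 and Dleu2, and lincRNA peaks included hosts such as Snhg6. RefSeq coding starts lay inside some processed transcript peaks, such as Ifi30 and Ptpmt1. The part of these genes in the difference was not tested. With an island within 250 bp of a start, 230 of 1777 genes (12.9%) had a peak, and without one 106 of 6143 (1.73%). By transcript support the share was 6.07% at level 1 (the best), 7.21% at level 2, 2.86% at level 3, 2.32% at level 5 and 2.90% for genes without a level, and its part in the difference between types was not tested.

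Genes that contain small RNA genes on their own strand had the highest shares with a peak, and these were not tested against one another. A peak was found at 24 of 108 miRNA host genes (22.2%, 95% CI 15.4 to 30.9), at 17 of 61 hosts of snoRNAs or the related Cajal body RNAs (27.9%, 18.2 to 40.2), and at 297 of 7758 genes with no such small RNA (3.83%, 3.42 to 4.28), beside 4.24% of all 7920. Host genes had more annotated starts, with a mean of 2.06 against 1.14. Among genes with 1 start the shares were 19.1% of 115 hosts and 3.31% of 6974 other genes. Among genes with an island at a start they were 44.2% of 77 hosts and 11.5% of 1700 others, and without an island 5.88% of 85 and 1.67% of 6058.

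**Figure D3:**
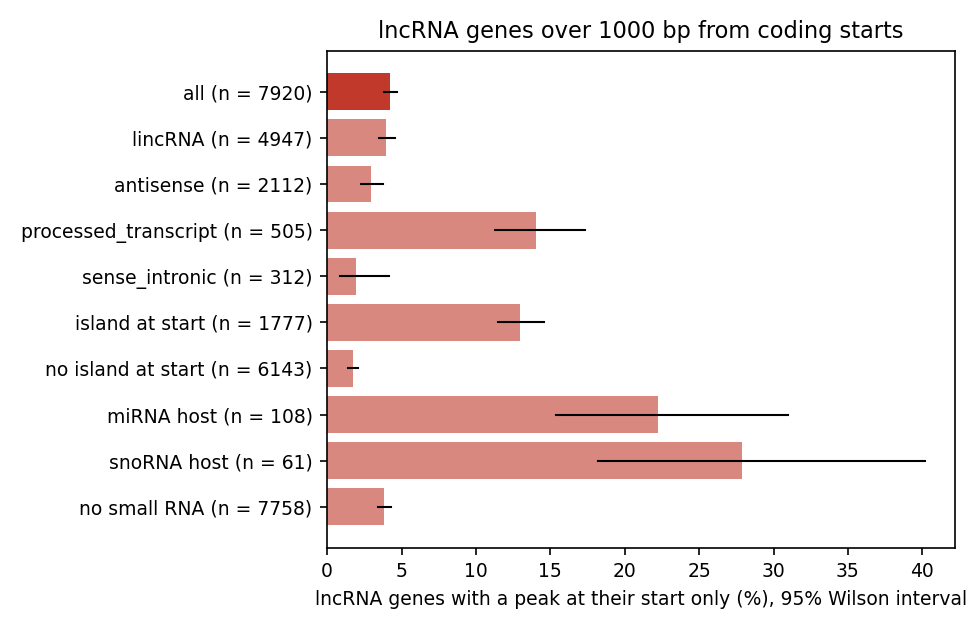
Share of lncRNA genes with a peak at their start only (%, horizontal axis) among those whose starts all lay over 1000 bp from coding TSSs, by GENCODE type, by CpG island within 250 bp of a start and by small RNA genes inside them. Black lines are 95% Wilson intervals, and the highest shares were those of snoRNA hosts (27.9%), miRNA hosts (22.2%) and processed transcripts (14.1%), against 4.24% of all.

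The miRNA host genes lay under 25 of the 322 peaks and contained 38 miRNA genes. Their median peak width was 3098 bp (range 631 to 37217 bp), against 1884 bp at the 283 peaks without small RNA genes, and 23 of the 25 overlapped an island. Mature sequences were found by symbol for 32 of the 38 in the RefSeq table (GRCm38.p6). The let-7 family, which restrains growth and maintains differentiated states, had a host gene at 6 of the peaks. A miRNA was counted at every peak of its host gene, so a counted peak need not lie upstream of it. Of 11 let-7 genes in the annotation, 7 lay in hosts with a peak, but these were only 4 host loci, so the count is not 7 separate promoters, and 22.2% of all miRNA host genes had a peak. These were let-7b and let-7c-2 in Lncppara, let-7a-2 in 3110039I08Rik, let-7a-1, let-7d and let-7f-1 in 6720427I07Rik and let-7c-1 in Mir99ahg. Their mature products, with the seed (bases 2 to 8) in capitals, share the seed GAGGUAG and are shown because 4 separate hosts supply them.
let-7a-5p: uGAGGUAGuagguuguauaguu
let-7b-5p: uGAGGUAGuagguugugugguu
let-7c-5p: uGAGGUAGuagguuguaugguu
let-7d-5p: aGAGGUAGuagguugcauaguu
let-7f-5p: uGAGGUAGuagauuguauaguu
The 6720427I07Rik peak was 4116 bp wide (chr13:48543281-48547396), and A830005F24Rik was its nearest coding gene, 29711 bp away.

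The hosts 3110039I08Rik and Mir99ahg each contain a cluster of a let-7 gene, a miR-99 family gene and a miR-125b gene, and each had 2 peaks. Those of 3110039I08Rik were the peak of 9358 bp given above and a peak of 2123 bp that overlapped no island (chr9:41474678-41476800). The mature let-7a-2-3p and miR-100-5p sequences (chr9:41536777-41536797 and chr9:41531437-41531458, plus strand) lie upstream of the peak of 9358 bp. Transcripts that start under that peak therefore do not include them, whereas the peak of 2123 bp lies upstream of both. Those of Mir99ahg were 2563 bp (chr16:77594557-77597119) and 1550 bp (chr16:77499849-77501398), both with an island. The products of the clusters beside let-7 are as follows, and miR-99a and miR-100 have the same seed.
miR-99a-5p: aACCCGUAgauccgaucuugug
miR-100-5p: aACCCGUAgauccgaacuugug
miR-125b-5p: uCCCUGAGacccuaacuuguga

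Several miRNAs with roles in proliferation or in tumours are encoded in other hosts under these peaks. Dleu2, host of the cell-cycle restraining miR-15a and miR-16-1, had peaks of 4117 bp and 3168 bp, the latter shared with Gm27017. Mir17hg, host of the growth-promoting cluster of miR-17, miR-18a, miR-19a, miR-20a, miR-19b-1 and miR-92a-1, had a peak of 3073 bp (chr14:115040260-115043332). AL805899.1 contains the miR-31 gene, Mir22hg (7117 bp) that of miR-22, and Mir155hg (2842 bp) that of miR-155, which is best known from immune cells. In the sequences below, miR-15a shares its seed with miR-16, miR-17 with miR-20a, and miR-19a with miR-19b.
miR-15a-5p: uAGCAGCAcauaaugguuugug
miR-16-5p: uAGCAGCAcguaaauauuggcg
miR-17-5p: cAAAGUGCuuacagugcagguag
miR-20a-5p: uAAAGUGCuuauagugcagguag
miR-19a-3p: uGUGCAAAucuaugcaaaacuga
miR-19b-3p: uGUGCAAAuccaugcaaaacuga
miR-31-5p: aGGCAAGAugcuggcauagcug
miR-22-3p: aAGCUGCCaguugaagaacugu
miR-155-5p: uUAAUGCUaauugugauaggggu
Further hosts with a peak were A330023F24Rik (miR-29b-2 and miR-29c, 3583 bp), Gm4258 (miR-181a-1 and miR-181b-1, 3218 bp), Gm20732 (miR-30d, 4016 bp), E130102H24Rik (miR-101a, 3098 bp) and 1700016P03Rik (miR-132 and miR-212, 1823 bp). Each peak is at an annotated start of the host gene, which at the wider 3110039I08Rik peak lies downstream of miR-100 and let-7a-2. The level of the miRNAs was not measured.

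snoRNA and Cajal body RNA hosts lay under 16 peaks, all of which overlapped an island, with a median width of 3265 bp (range 524 to 5726 bp). These genes make spliced transcripts from whose introns guides of RNA modification are released. The widest were Snhg20 (5726 bp), 2410006H16Rik with Snord49a, Snord49b and Snord65 (4259 bp), Snhg17 (3940 bp), Snhg5 (3786 bp), Snhg6 (3762 bp) and Snhg15 (3646 bp). Dancr had 3043 bp and Snhg12 2006 bp, whereas 2700038G22Rik had the narrowest, 524 bp. Snhg20 and 2900076A07Rik counted as hosts of both kinds, which left 39 peaks at hosts of any small RNA.

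**Figure D4:**
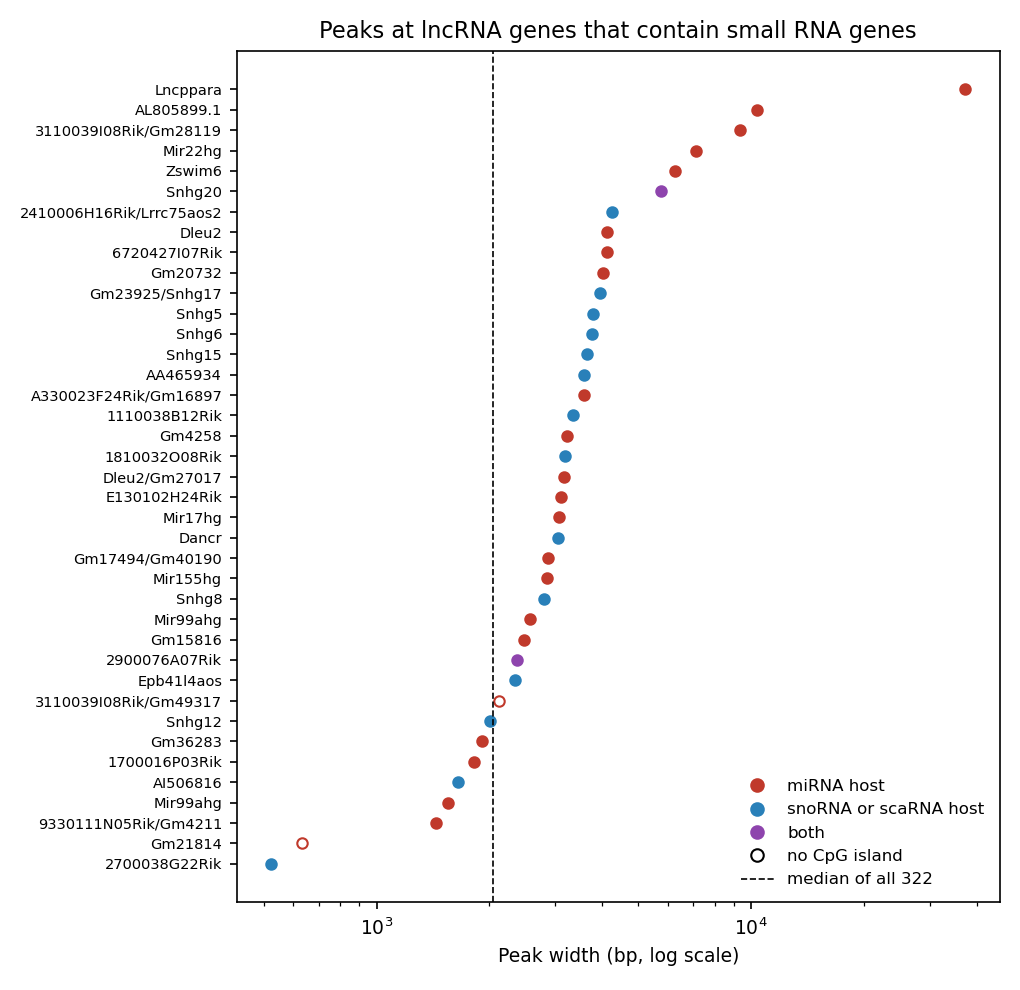
Width of the 39 peaks at lncRNA genes that contain miRNA, snoRNA or Cajal body RNA genes (bp, log scale, horizontal axis), 1 point per peak, with the lncRNA genes named on the vertical axis. Open points mark peaks without a CpG island, and the dashed line is the median of all 322 peaks (2045 bp), with the widest point at Lncppara (37217 bp).

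Named lncRNA genes were looked up in 7 lists, chosen with earlier results of these data known, so the counts are descriptions only. Dleu2 is on both the miRNA host and growth lists, and Gas5 on both the snoRNA host and growth lists. The counts are set beside 4.24% of 7920 lncRNA genes, and for hosts beside 22.2% of miRNA hosts and 27.9% of snoRNA or Cajal body RNA hosts. Only genes with every start over 1000 bp from coding TSSs entered these shares. Of 15 snoRNA hosts present in the annotation, 10 met that condition and 8 had a peak counted here (Snhg5, Snhg6, Snhg8, Snhg12, Snhg15, Snhg17, Snhg20 and Epb41l4aos). Another 6 (Gas5, Snhg1, Snhg3, Snhg9, Snhg18 and Zfas1) had a peak that also reached a coding TSS, and Snhg14, the long transcript of the imprinted Ube3a region, had none. Of 12 miRNA hosts, all of which met the condition, 6 had a peak (Lncppara, Mir22hg, Dleu2, Mir17hg, Mir155hg and Mir99ahg). The other 6 had none, among them Mir124a-1hg, Mir124-2hg and Mir9-3hg, hosts of neural miRNAs, Mir142hg, host of a blood-cell miRNA, Mirg and Dnm3os.

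Of 5 nuclear lncRNA genes, 4 of which met the condition, Malat1, Neat1 and Firre (2080 bp) had a peak counted here, Tug1 shared its peak of 5342 bp with a coding TSS, and Miat had none. Among 7 imprinted lncRNA genes, all meeting the condition, Kcnq1ot1, which silences neighbours on the paternal chromosome, had a peak (2913 bp, chr7:143294040-143296952). H19, Meg3, Rian, Airn, Nespas and Peg13 had none. Among 4 genes of the X inactivation centre, Jpx, an activator of Xist, had a peak of 2886 bp, while Xist, Tsix and Ftx had none. Nothing is read from counts of 1 of 7 and 1 of 4 beside the 4.24% of all such genes.

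Of 9 Hox cluster lncRNA genes, 6 met the condition, and of these Hotair, a lncRNA of the HoxC cluster, had a peak counted here (2650 bp, chr15:102946039-102948688). Hottip, Hoxaas3, Hoxb5os, Hoxb3os and Halr1 had none. Hotairm1, Hoxa11os and Hoxaas2 start within 1000 bp of a coding TSS, and of these Hotairm1 shared a peak of 3830 bp with a coding TSS and the others had none. Of 5 growth and p53 genes, 4 of which met the condition, Pvt1, Trp53cor1, Lncpint and Dleu2 had a peak counted here and Gas5 shared its peak of 6149 bp with a coding TSS. Trp53cor1, known as lincRNA-p21, had 1604 bp and lay 11537 bp from Cdkn1a, the gene of the cell cycle inhibitor p21, whose peak was 3771 bp wide.

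The nearest protein-coding gene had a peak of its own at 219 of the 322 loci (68.0%, 95% CI 62.7 to 72.9). This compares with 49.4% of all protein-coding genes and with 53.9% (4000 of 7424) of the coding genes nearest to lncRNA genes that had no peak. The median distance from peak to coding TSS was 30042 bp, from 1042 bp at Nkx2-2os to 1325136 bp at Gm13470, and 306 distinct coding genes were nearest to a peak. At a distance of 1 to 10 kb from lncRNA start to coding start the share was 61.9% of 63 genes with a peak and 46.6% of 1244 without. At 10 to 50 kb it was 68.1% of 163 and 56.1% of 2524, and at 50 to 200 kb 74.7% of 95 and 55.6% of 2355. Beyond 200 kb it was 7 of 15 (46.7%, 24.8 to 69.9) and 53.4% of 1301, a difference well within the counting error.

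**Figure D5:**
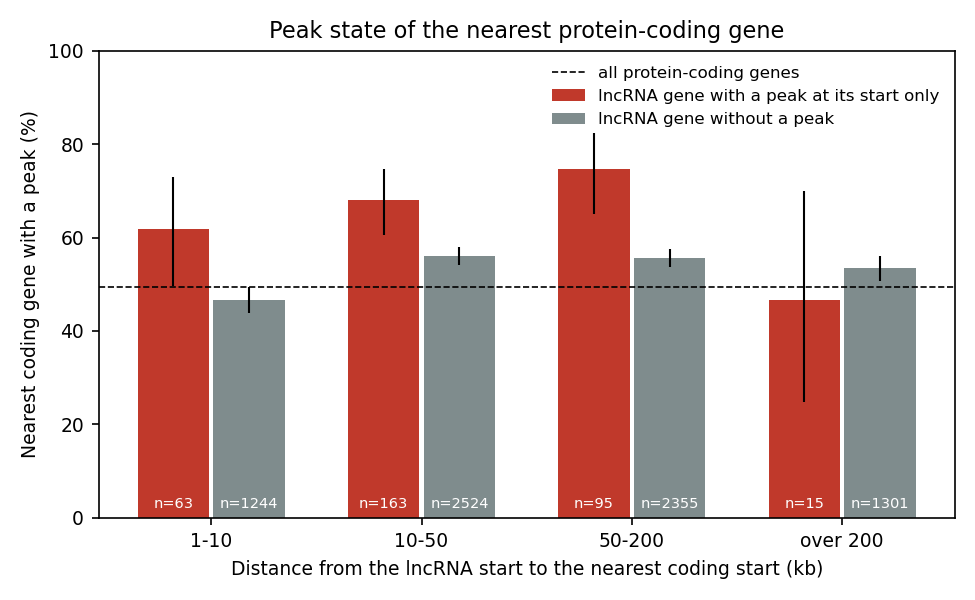
Share of nearest protein-coding genes with a peak (%, vertical axis) by distance from the lncRNA start to the coding start (kb, horizontal axis), for lncRNA genes with a peak at their start only and for lncRNA genes without a peak. Black lines are 95% Wilson intervals, n is the number of lncRNA genes and the dashed line is the share of all protein-coding genes (49.4%), and in the 3 bins up to 200 kb the lncRNA genes with a peak have the higher share.

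The share was also split by strand. The lncRNA was transcribed in the same direction as the nearest coding gene at 153 peaks, away from it at 95 and towards it at 74, and the coding gene had a peak at 68.6%, 71.6% and 62.2% of these, with overlapping intervals. The lncRNA start lay outside coding genes at 266 peaks, inside a coding gene on its opposite strand at 50 and on the same strand at 6. The 5 peaks at sense intronic genes (Gm28499 in Agap1, Bach2it1 in Bach2, Gm43566 in Srpk2, Gm43445 in Lmo4 and Gm13840 in Pxn) were 609 to 2853 bp wide, and the named coding gene had a peak at each. A RefSeq coding start of Srpk2 also lay inside the Gm43566 peak itself.

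The 103 peaks whose nearest coding gene lacked a peak had a median width of 2459 bp, against 1915 bp at the other 219. The nearest coding gene had a peak at 12 of the 25 miRNA host peaks and at 6 of the 16 snoRNA host peaks, beside 68.0% of all 322. These differences were not tested. Dleu2, 3110039I08Rik and Mir99ahg each have 2 of the miRNA host peaks, so the 25 are not separate loci. Hosts beside a coding gene without a peak included Mir17hg next to the glypican gene Gpc5, Snhg6 next to Tcf24, and AL805899.1 next to Ifne, an interferon gene.

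The 5 widest peaks within 50000 bp of such a gene were A330074K22Rik next to Fam92b (47322 bp away), Carmn next to the cytokine gene Il17b (21142 bp), Mir22hg next to Tlcd2 (2809 bp), Gm20324 next to Tcf20 (10463 bp) and Gm15222 next to Bmp4, a BMP ligand gene (1605 bp). At 4 of these 5, all but Carmn, a larger transcript set placed a coding start within 1000 bp of the peak. In the larger set, starts of Tlcd2, Tcf20 and Bmp4 themselves lay inside the peaks of Mir22hg, Gm20324 and Gm15222, so that these coding genes lacked a peak only at their basic-set starts, and a start of Gse1 lay inside the peak of A330074K22Rik. Such starts were present at 50 of the 322 peaks (15.5%) when all GENCODE and RefSeq coding transcripts were counted. Curated RefSeq mRNA starts lay within 1000 bp of 18 peaks, among them Zswim6, Ifi30, Ptpmt1 and Tctn2, which this GENCODE release lists as non-coding.

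Coding genes with symbols picked by 30 prefixes, meant for developmental and signal-responsive transcription factor families, were nearest to 16 peaks (4.97%, 95% CI 3.08 to 7.92). They made up 1.25% of all protein-coding genes, and 3.56% of the genes nearest to lncRNA genes without a peak, which lies inside that interval. The coding gene had a peak at 14 of the 16 (95% CI 64.0 to 96.5%, with Smad6 counted at 2 peaks), an interval that holds the 68.0% of all 322. Of the 272 genes with such symbols, 52.2% had a peak. The prefixes also take in some genes that are not transcription factors, such as Idh1, Tbxa2r and Irf2bp2, a co-repressor. Irf2bp2 was nearest to Gm26759. A digit had to follow the prefix directly or after a letter. The Cebp and Tfap2 prefixes therefore picked no gene, and Nfi picked only Nfil3.

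The widest of these peaks beside a coding gene with a peak was Gm27240, inside Ets1 on its opposite strand (4826 bp, no island), where the Ets1 peak was 5926 bp wide and 11703 bp away. 2410080I02Rik had 3934 bp and lay 3670 bp from Klf9, and Gm37170 had 3734 bp and lay 68711 bp from Foxo1. Gm29430 (3320 bp) was nearest to Hoxa4 by the basic transcripts, although a Hoxa3 start of the larger sets lay inside the peak. Hotair was nearest to Hoxc11, whose peak was 12592 bp wide, Gm53 (2322 bp) to Hoxb9, and Gm11476 (2213 bp) to Snai1, the gene of an inducer of epithelial to mesenchymal transition, whose peak was 7302 bp wide. Gm36033 (2031 bp) and 1110036E04Rik (1422 bp) both had Smad6, an inhibitor of BMP signalling, as their nearest coding gene, at 93061 and 27447 bp. Klf14, nearest to Lncpint, and Nkx6-3, nearest to Gm15816, had no peak.

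The peaks farthest from any coding TSS of the basic set were small to moderate in width, with 1 exception. They were Gm13470 (1613 bp, 1325136 bp from Zeb2), Gm31415 (1524 bp, 693674 bp from Pcdh18), AC119181.3 (447 bp, 634159 bp from Galr1), Gm15398 (2993 bp, 494630 bp from Pcdh15) and the exception, 3110039I08Rik with Gm28119 (9358 bp, 420863 bp from Ubash3b). Only Gm31415 and 3110039I08Rik of these overlapped an island. In the larger transcript sets a Pcdh15 start lay 224792 bp from the Gm15398 peak, and a Gm40514 start 322654 bp from the 3110039I08Rik peak. Over the 322 peaks the Spearman rho of width and distance was -0.03.

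The counted peaks nearest to the limit of 1000 bp lay at Nkx2-2os (1042 bp from Nkx2-2), 1700120C14Rik (1108 bp from Mcrs1), Gm15222 (1605 bp), Gm48952 (2208 bp) and Gm12758 with Gm12762 (2442 bp). Peaks left out because a coding TSS lay within 1000 bp included Gm12063 (868 bp from Bcl11a), Gm44089 (834 bp), Gm12454 (744 bp), Gm16894 (712 bp) and Gm40617 (646 bp). The widths were 1040 to 5037 bp for the former and 321 to 2261 bp for the latter.

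Motif letters in the 300 bp from 250 bp before to 50 bp after the TSS were searched on both strands. The GC box GGGCGG was present at 40.4% of the 322 starts, against 69.3% at coding starts with a peak and 8.24% at lncRNA genes without one. It was present at 50.6% of the starts with an island peak and 8.86% of those without. The AP-1 letters TGANTCA were found at 13.0% of the 322, 4.59% of the coding starts and 10.3% of the lncRNA genes without a peak. Among the 322, they were found at 22.8% (95% CI 14.9 to 33.2) of the 79 starts without an island and 9.88% of the 243 with one. The comparison groups were not split by island.

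The TATA letters TATAAA were present at 12.1% of the 322 starts, 5.69% of coding starts and 16.2% of lncRNA genes without a peak. At 20 to 40 bp before the TSS on the transcript strand they occurred at 5 of the 322 (1.55%, Wilson interval 0.67 to 3.58). The shares were 0.81% of the 8491 coding starts and 1.14% of the 7424 lncRNA genes without a peak, both inside that interval. The ETS letters CCGGAAG were present at 9.63%, 19.1% and 2.87%, the CRE letters TGACGTCA at 4.04%, 3.46% and 0.70%, and the E box CACGTG at 8.39%, 10.4% and 5.23%. The NRF1 letters GCATGCGC were present at 1.24%, 5.42% and 0.97%, and the CCAAT box at 37.3%, 36.3% and 36.5%. None of these words contains another, and a match is a description of sequence only.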

How the data were processed

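H3K4me3 ChIP-seq of C127 cells (3 replicates, grouped by the labels) was analysed. The other 21 samples were left out because the question concerned this list alone. Per the study's methods, the authors aligned reads to mm10 with bowtie2, discarded reads without a unique position, removed PCR duplicates with SAMtools, called peaks per replicate with MACS against a matched control, required overlap in every replicate and joined neighbouring peaks. Versions are not given in the sources used here. The deposited list gives positions in bp only (13451 peaks, 4 on scaffolds left out). Read depth is unknown.

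Starts came from GENCODE vM21 basic transcripts, with 21755 protein-coding and 9600 lncRNA genes. Islands (177680) were unions of 200-bp windows with at least 0.5 GC and an observed to expected CpG ratio no lower than 0.6. Functions were tested on simulated loci. Python 3.11.15, numpy 2.4.6, pandas 2.3.3 and scipy 1.17.1 were used.

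The peaks, gene lists and epithelial check genes were chosen with earlier results of these data known. Named loci were the 12 widest and 5 narrowest peaks, the 5 farthest from coding TSSs, the 5 on either side of the 1000 bp limit, types with 5 or fewer peaks, genes of the lists, the 5 widest peaks beside a coding gene without a peak, and transcription factor neighbours. Small RNA hosts outside the lists were named after their values were seen, and the split of host genes by island and number of starts was added then.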

Additional observations from a re-analysis of the deposited data

How the results depend on the processing

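The settings varied were the distance to the lncRNA TSS, the distance to coding TSSs, the coding and lncRNA transcripts used, a minimum width and the island definition. Restricting lncRNA transcripts to support level 1 or 2 left 202 of the 322 peaks, and 6.07% of lncRNA genes then had a peak in place of 4.24%. That share was 4.73% with a lncRNA TSS distance of up to 1000 bp and 3.51% for peaks of at least 1000 bp, which also raised the median width from 2045 to 2411 bp. The stricter island definition lowered island overlap from 75.5% to 47.5%. The share of nearest coding genes with a peak stayed between 64.2% and 72.3% over 14 settings, and the downstream excess stayed positive, between 520 and 703 bp, over 13. Adding RefSeq coding starts left 282 peaks and using all GENCODE coding transcripts left 297. The list has no scores, so no stricter peak threshold could be applied, and being a consensus of all replicates it did not allow a replicate to be left out. No paired analysis was possible because no result comes from a test over samples.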
